A study of Mus musculus with 13 samples.

Results

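The genes described here are 10 immediate early transcription factors: the AP-1 subunits Fos, Fosb, Fosl1, Fosl2, Jun and Junb, the zinc-finger factor Egr1, and the orphan nuclear receptors Nr4a1, Nr4a2 and Nr4a3. They were found by the gene name that the array files give to each probe, which returned 12 of the 41174 probes on the array: 2 each for Fosl2 and Junb and 1 for every other gene. Of these 10 genes, 9 were among the 18274 genes that passed the filter on dim probes, and Nr4a3 was not. RNA came from mouse mammary organoids, which are epithelial fragments freed with collagenase and trypsin, grown in a gel and collected on day 4. Normal organoids came from wild-type FVB mice, whose age was not stated in the labels used here. Tumor organoids came from the largest tumor of MMTV-PyMT mice aged 12 to 16 weeks, in which the mammary tumor virus promoter drives the polyoma middle T oncogene in mammary epithelium. Each kind was embedded in 1 of 2 gels, either Matrigel, which is rich in laminin and stands in for a basement membrane, or 3 mg/ml collagen I from rat tail, and all 4 groups received 2.5 nM FGF2. Each of the 4 groups holds 3 mice, 1 array a mouse; mice A and B of the normal tissue and mice A, B and C of the tumors were grown in both gels, while mouse D of normal Matrigel and mouse C of normal collagen I appear once.

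Immediate early genes are transcribed within minutes of a signal, without new protein synthesis, because their activators already sit in the cell. Growth factor receptors, integrins and cell stress reach them through the MAP kinases ERK, JNK and p38, which act on ELK1 and SRF at the CArG box, on CREB and its relatives at the cyclic AMP response element (CRE), and on JUN itself. FOS and JUN proteins pair through leucine zippers into AP-1, which drives genes of proliferation, matrix breakdown and wound repair. EGR1 and the NR4A receptors bind sites of their own, and the RNAs of most of these genes decay fast, so a level on day 4 is one moment of a process that may be moving.

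Levels are log2 of the background-subtracted signal minus the log2 75th percentile of that array, so that 0 is the 75th percentile of the array's spots and 1 unit is a doubling. Probes differ in brightness for reasons other than RNA amount, so a level is compared between samples of 1 probe and never between probes. Differences are given in log2 units ± the standard error of a limma fit over all 12 arrays, and a gene was called where its p-value, adjusted by Benjamini-Hochberg over the 18274 genes, was below 0.05. The 75th percentile of the raw signal was 383 to 570 on the 3 tumor Matrigel arrays and 671 to 1220 on the other 9, and 56.6% to 58.6% of spots against 62.1% to 71.4% were well above background. All 11 luminal epithelial markers tested were well above background on every array. Since these are bulk samples, fewer cells of a type and less RNA per cell cannot be told apart.

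The sequences just upstream of 4 of the genes with the clearest differences are shown because these genes shared a pattern over the groups, and the letters show which textbook elements lie next to their starts. They are the 250 bases before the RefSeq transcription start (GRCm38.p6), printed 5′ to 3′ along the gene's strand in lower case. Capitals mark every match on either strand to a CRE half-site (TGACG, printed CGTCA on the other strand), an EGR site (GCGNGGGCG), a TATA box (TATAAA), an AP-1 site (TGANTCA), a full CRE (TGACGTCA, which holds a half-site on each strand), an NBRE for NR4A receptors (AAAGGTCA) or a CArG box. Fos is read at chr12:85473640-85473889 on the plus strand, Junb at chr8:84978749-84978998 on the minus strand, Nr4a1 at chr15:101266596-101266845 on the plus strand and Nr4a2 at chr2:57124004-57124253 on the minus strand.
Fos: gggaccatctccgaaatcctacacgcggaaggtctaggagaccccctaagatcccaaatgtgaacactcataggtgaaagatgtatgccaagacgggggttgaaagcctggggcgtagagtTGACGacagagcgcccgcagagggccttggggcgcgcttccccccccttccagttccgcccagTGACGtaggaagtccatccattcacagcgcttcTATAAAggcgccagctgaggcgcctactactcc
Junb: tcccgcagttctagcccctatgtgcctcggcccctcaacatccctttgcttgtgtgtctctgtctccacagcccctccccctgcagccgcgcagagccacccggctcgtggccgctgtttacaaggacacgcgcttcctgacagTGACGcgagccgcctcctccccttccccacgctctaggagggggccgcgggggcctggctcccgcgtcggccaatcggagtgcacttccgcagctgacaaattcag
Nr4a1: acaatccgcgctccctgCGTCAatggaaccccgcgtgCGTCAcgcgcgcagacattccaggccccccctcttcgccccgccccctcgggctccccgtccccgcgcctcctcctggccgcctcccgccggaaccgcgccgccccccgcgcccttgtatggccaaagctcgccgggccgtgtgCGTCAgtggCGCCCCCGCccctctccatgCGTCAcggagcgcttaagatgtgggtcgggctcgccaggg
Nr4a2: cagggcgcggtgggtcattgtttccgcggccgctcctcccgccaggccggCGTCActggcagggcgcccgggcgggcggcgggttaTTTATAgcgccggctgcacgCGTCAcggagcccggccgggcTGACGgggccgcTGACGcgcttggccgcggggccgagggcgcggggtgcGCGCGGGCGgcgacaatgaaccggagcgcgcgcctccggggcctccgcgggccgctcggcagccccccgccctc

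The table of RefSeq promoters held 8 of the 10 genes; Fosl1 and Egr1 have no sequence here. A CRE half-site lay in 6 of these 8 windows, against 17.8% of the 32851 promoter windows of the same length. Fos had 2, Junb 1, Nr4a1 4 and Nr4a2 4, and 0.137% of all windows had 4 or more. The Fos half-site that begins 66 bases before the start and the TATA box at 33 bases are the landmarks of that promoter. An EGR site was found in 4 of the 8 windows (4.7% of all windows) and TATAAA in 2 of 8 (12.4%). The TATAAA match of Nr4a2 is on the other strand, 164 bases before the start, unlike that of Fos. No window of the 8 held TGANTCA (6.75% of all), the full CRE (1.55%), the NBRE (1.34%) or the CArG box (1.47%). Elements beyond these 250 bases, and any of Fosl1 or Egr1, could not be found by this search. These 8 windows were 58.4% to 80% G and C, against a median of 52.4% over all windows, and a match is a run of letters, not a shown binding site.

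The pattern shared by Fos, Egr1, Junb, Nr4a1 and Nr4a2 was a low level in normal organoids in Matrigel and a higher level in the other 3 groups. Tumor organoids exceeded normal ones in Matrigel for these 5 genes and for Fosl1, by 2-fold for Egr1 to 12.4-fold for Fosl1. In collagen I no tumor difference was called for any of the 9 genes. Fosl1, whose protein lacks the transactivation domain of FOS and is known for its part in invasion, had a pattern of its own, with its highest level in tumor organoids in Matrigel. Jun, Fosl2 and Fosb differed least, by under 1 log2 unit between any group means of the probe used.

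**Figure D1:**
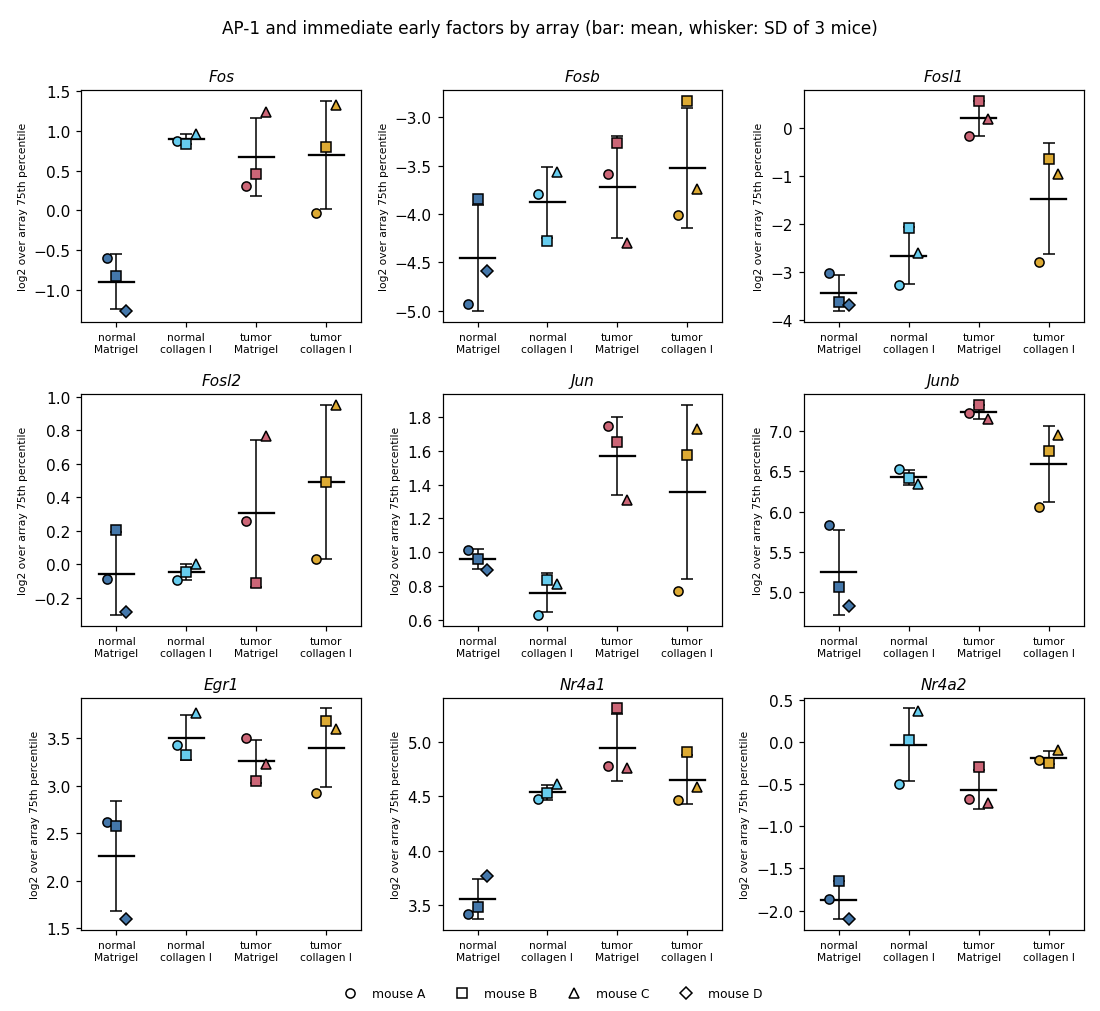
Level of the 9 tested genes on each of the 12 arrays, as log2 over the array's 75th percentile (vertical axis; each panel has its own range), in the 4 groups (horizontal axis); symbols are mice, bars means and whiskers the SD of 3 mice. In Fos, Junb, Egr1, Nr4a1 and Nr4a2 the 3 normal Matrigel arrays lie below all 9 others.

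Fos, the cellular form of the FBJ osteosarcoma virus oncogene and the best known partner of JUN, was measured by 1 probe printed 10 times on each array. Its level in normal Matrigel was -0.60 in mouse A, -0.82 in mouse B and -1.27 in mouse D, and in normal collagen I it was 0.87, 0.84 and 0.96 in mice A, B and C. In tumor Matrigel the level was 0.31, 0.46 and 1.23 in mice A, B and C, and in tumor collagen I -0.03, 0.79 and 1.33. The 3 normal Matrigel arrays were lowest of the 12, the normal collagen I arrays lay close together (SD 0.064), and the tumor groups spread more widely (SD 0.493 and 0.684) and overlapped each other. The median SD between the spots of 1 array was 0.041, far below the SD of 0.341 between mice in normal Matrigel. Ordered by mean, the groups ran from normal Matrigel (-0.90) through tumor Matrigel (0.67) and tumor collagen I (0.70) to normal collagen I (0.89), and the last 3 did not differ beyond their spread.

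Junb, the subunit that pairs with FOS proteins and restrains JUN in several settings, had levels of 5.84, 5.07 and 4.82 in normal Matrigel (mice A, B, D) and 6.52, 6.41 and 6.34 in normal collagen I (A, B, C). Tumor Matrigel gave 7.23, 7.33 and 7.15, and tumor collagen I gave 6.06, 6.75 and 6.95. On this scaling, tumor Matrigel arrays were the highest of all 12 and normal Matrigel arrays the lowest. Neither of those 2 groups overlapped any other. In order of means, normal Matrigel (5.25) came first, followed by normal collagen I (6.43), tumor collagen I (6.59) and tumor Matrigel (7.23); the 2 collagen I groups overlapped. The top place of tumor Matrigel depended on the scaling. In the authors' deposited log2 values the Junb gel difference in tumor organoids was 0.045 and the tissue difference in collagen I -0.33. Under quantile normalization the tissue difference in collagen I was -0.29.

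Egr1, a zinc-finger activator induced through SRF and ELK1, was at 2.61, 2.58 and 1.59 in normal Matrigel (A, B, D) and at 3.43, 3.32 and 3.77 in normal collagen I (A, B, C). Tumor Matrigel gave 3.50, 3.05 and 3.23, and tumor collagen I 2.92, 3.68 and 3.59. The 3 normal Matrigel arrays were again below the other 9, which overlapped among themselves, and mouse D was the lowest array. Group means were 2.26 in normal Matrigel, 3.26 in tumor Matrigel, 3.40 in tumor collagen I and 3.51 in normal collagen I.

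Nr4a1, an orphan nuclear receptor that growth factors and stress induce, was at 3.42, 3.48 and 3.77 in normal Matrigel (A, B, D) and at 4.47, 4.53 and 4.61 in normal collagen I (A, B, C). Tumor Matrigel gave 4.78, 5.31 and 4.76 and tumor collagen I 4.47, 4.91 and 4.58. The normal Matrigel arrays were the 3 lowest; the tumor Matrigel arrays lay above the normal collagen I arrays and overlapped those of tumor collagen I. Means were 3.55 in normal Matrigel, 4.54 in normal collagen I, 4.65 in tumor collagen I and 4.95 in tumor Matrigel. The order of the groups above normal Matrigel depended on the scaling. In the authors' deposited values the Nr4a1 gel difference in tumor organoids was 0.16 and the tissue difference in collagen I -0.0644. Quantile normalization gave 0.10 and -0.0665.

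Nr4a2, its close relative best known from dopamine neurons, was at -1.86, -1.65 and -2.10 in normal Matrigel (A, B, D) and at -0.49, 0.03 and 0.36 in normal collagen I (A, B, C). Tumor Matrigel gave -0.68, -0.30 and -0.73, and tumor collagen I -0.22, -0.24 and -0.10. All 3 normal Matrigel arrays were below the other 9, and the tumor collagen I arrays lay just above those of tumor Matrigel. Means were -1.87 in normal Matrigel, -0.57 in tumor Matrigel, -0.19 in tumor collagen I and -0.03 in normal collagen I. Nr4a3, the third receptor of the family, had 1 probe that was well above background on 0 of the 12 arrays, with a processed signal of 2.28 to 6.63 (median 2.7), so no level or difference is given for it.

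Fosl1 was at -3.00, -3.62 and -3.68 in normal Matrigel (A, B, D) and at -3.27, -2.09 and -2.61 in normal collagen I (A, B, C). Tumor Matrigel gave -0.16, 0.57 and 0.19, and tumor collagen I gave -2.78, -0.65 and -0.96. The tumor Matrigel arrays were the 3 highest with no overlap, and within tumor collagen I mouse A lay among the normal arrays. In order of means the groups were normal Matrigel (-3.44), normal collagen I (-2.65), tumor collagen I (-1.46, SD 1.15) and tumor Matrigel (0.20).

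Jun, the subunit that JNK phosphorylates, was at 1.01, 0.96 and 0.90 in normal Matrigel (A, B, D) and slightly lower in normal collagen I at 0.63, 0.84 and 0.81 (A, B, C). Tumor Matrigel gave 1.75, 1.65 and 1.31, and tumor collagen I 0.77, 1.57 and 1.73, so that tumor arrays were above normal ones except mouse A in collagen I. Fosb, whose splice forms differ in stability, ranged over its 12 arrays from -4.93 to -2.83, with group means of -4.45 in normal Matrigel, -3.88 in normal collagen I, -3.72 in tumor Matrigel and -3.53 in tumor collagen I. All 4 Fosb groups overlapped.

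In normal organoids, the change from Matrigel to collagen I raised Nr4a2 by 1.84 ± 0.23 (SE; 95% interval 1.33 to 2.35; 3.57-fold; limma adjusted p = 0.0177; higher in 3 of 3 against 3 mice with no overlap). It was the only one of the 9 genes called, and 8 of the 18274 genes, 0.0438%, were called in either direction (0.0383% higher and 0.00547% lower). Fos differed by 1.79 ± 0.35 (adjusted p = 0.0915), Egr1 by 1.25 ± 0.30 (0.18), Junb by 1.18 ± 0.28 (0.165) and Nr4a1 by 0.99 ± 0.20 (0.102), none of which passed the threshold. Their 95% intervals, not adjusted for the number of genes, were 1.02 to 2.55, 0.57 to 1.92, 0.56 to 1.80 and 0.55 to 1.42. In 5 of the 9 genes the collagen I arrays all lay above the Matrigel arrays, where 11.6% of all genes did so, and in 1, Jun, they all lay below, as in 10% of all genes. Fosl1 (0.78), Fosb (0.57), Fosl2 (0.01) and Jun (-0.20) were not called either. The 2 mice grown in both gels gave Fos differences of 1.47 and 1.66, Nr4a2 differences of 1.37 and 1.68 and Nr4a1 differences of 1.05 and 1.05, and the 2 pairs of arrays that share a slide gave 1.78 and 2.14 for Fos and 1.61 and 2.02 for Nr4a2.

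The Nr4a2 call ended when normal Matrigel mouse B (1.95, adjusted p = 0.0648) or D (1.72, 0.0542), or normal collagen I mouse B (1.81, 0.126) or C (1.64, 0.0958), was left out, with only the 2 groups in the fit (0.0818), with slide as a fixed block (0.381) and with mouse as a fixed replicate block (1.52, 0.243). With mouse as a random replicate block 3 genes were called, adding Fos (1.76, adjusted p = 0.0485) and Nr4a1 (0.995, 0.0489), and with weights by array quality 5 were called, while the calls over all genes rose from 8 to 71 and to 1186. Macrophage and leukocyte markers moved with this difference: 10 of the 11 tested were higher in normal collagen I, 0 of them called, with a median difference of 1.90. Their mean level was -3.46 to -1.54 in normal Matrigel and -0.98 to -0.30 in normal collagen I, with 9 to 11 and 11 of the 11 well above background. In tumor Matrigel and tumor collagen I the mean level of these markers was -2.37 to -1.90 and -2.43 to -2.18. Of 10 basal markers 1, Mme, was called higher in normal collagen I, and the median over that list was 0.01. Of 3 adipocyte markers 0 lay above 0 and 0 were called (median -2.27). The part of any of these cell types in the normal difference was not tested.

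In tumor organoids, Fosl1 fell by 1.67 ± 0.51 (SE; 95% interval -2.79 to -0.55; 0.315 times the Matrigel level; limma adjusted p = 0.0332) on the same change of gel, and no other of the 9 genes was called. Over all genes 27.8% were called, 12.1% lower and 15.8% higher, so 1 called gene of 9 is no more than the background. Mice A, B and C, each grown in both gels, gave Fosl1 differences of -2.62, -1.23 and -1.15. The call ended without tumor Matrigel mouse B (-1.48, adjusted p = 0.113) or C (-1.67, 0.0643) and without tumor collagen I mouse A (-1.01, 0.0874), and also with only the 2 groups in the fit (0.0892), with no filter (0.0577) and with array weights (0.055). The arrays of both gels did not overlap in 3 of the 9 genes, with Fosl1 and Junb below (18.7% of all genes) and Nr4a2 above (19.8%) in collagen I. Junb differed by -0.65 ± 0.28 (adjusted p = 0.112), with same-mouse differences of -1.17, -0.58 and -0.20. Fos (0.03 ± 0.35), Egr1 (0.14 ± 0.30), Nr4a1 (-0.30 ± 0.20) and Nr4a2 (0.38 ± 0.23) had intervals that include 0, of -0.73 to 0.79, -0.53 to 0.81, -0.73 to 0.14 and -0.13 to 0.89. Cell type markers moved with this change of gel: 10 of 10 fibroblast and pericyte markers were above 0 (median 1.13, 1 called higher), and 4 of 11 luminal markers were called lower (median -0.66). The mean fibroblast level was -2.94 to -2.60 in tumor Matrigel and -2.32 to -1.24 in tumor collagen I, and the mean luminal level 4.15 to 4.57 and 3.63 to 3.98. Their part in the Fosl1 difference was not tested.

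**Figure D2:**
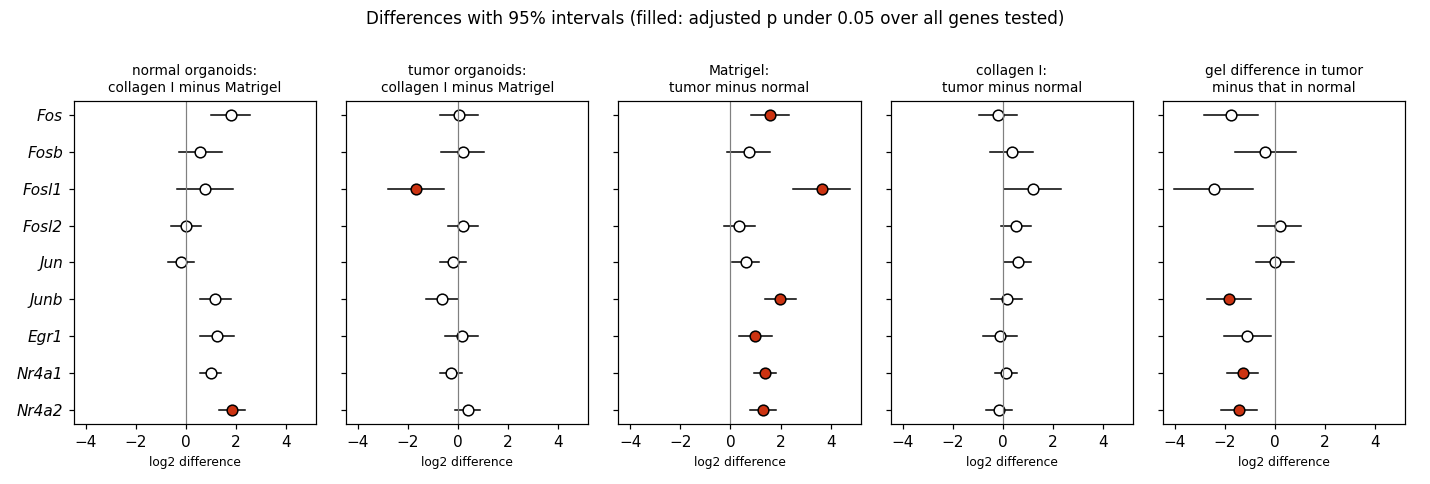
Log2 difference (horizontal axis) of the 9 genes (rows) in the 5 comparisons (panels), with 95% intervals not adjusted for the number of genes; filled points were called at an adjusted p below 0.05. In the Matrigel panel 6 points are filled, all to the right of 0, and in the collagen I panel none is.

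In Matrigel, tumor organoids exceeded normal ones in 6 of the 9 genes and fell below them in 0, where 51.6% of all genes were called, 25.7% higher and 25.9% lower. The probes of all 9 genes were well above background on all 12 arrays. Over the 14893 genes left with only such probes, 4597 were called higher and 3123 lower. The median difference of those genes was 0.22, against 0.08 over all genes. Fosl1 rose by 3.64 ± 0.51 (12.4-fold, adjusted p = 0.000369) and Junb by 1.99 ± 0.28 (3.97-fold, 0.000401). Fos rose by 1.56 ± 0.35 (2.96-fold, 0.00377), Nr4a1 by 1.40 ± 0.20 (2.63-fold, 4e-04), Nr4a2 by 1.30 ± 0.23 (2.47-fold, 0.0012) and Egr1 by 1.00 ± 0.30 (2-fold, 0.0187). The 95% intervals were 2.52 to 4.76 for Fosl1, 1.36 to 2.61 for Junb, 0.80 to 2.33 for Fos, 0.96 to 1.83 for Nr4a1, 0.80 to 1.81 for Nr4a2 and 0.33 to 1.67 for Egr1. Jun differed by 0.61 ± 0.24 and just missed the threshold (adjusted p = 0.0527), Fosb by 0.74 ± 0.39 (0.137) and Fosl2 by 0.36 ± 0.27 (0.29). The arrays of both tissues did not overlap in 7 of the 9 genes, the 6 called and Jun, against 29.5% of all genes with tumor above normal and 28.1% with tumor below. On the only slide with both groups, tumor mouse B exceeded normal mouse D by 4.26 for Fosl1, 2.50 for Junb, 1.73 for Fos, 1.80 for Nr4a2, 1.55 for Nr4a1 and 1.46 for Egr1.

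Scaling bore on the size of some of these values. In the authors' deposited values the difference was 1.02 for Junb and 0.80 for Nr4a1, and for Egr1 it was 0.62 (adjusted p = 0.122); quantile normalization gave 1.12, 0.84 and 0.62 (0.132). In those deposited columns the log2 values of the tumor Matrigel arrays followed the scanner values with slopes of 0.888 to 0.908, and those of the other 9 arrays with slopes of 0.978 to 1.066. Egr1 also lost its call without normal Matrigel mouse D (0.66, adjusted p = 0.0724) and without tumor Matrigel mouse A (0.88, 0.061), and with normexp background correction (0.69, 0.139). Fosl1, Junb, Fos, Nr4a1 and Nr4a2 were called without each array in turn, with adjusted p between 6.19e-05 and 0.0184. Fosb was called in the authors' deposited values (1.37, limma adjusted p = 0.00503), under quantile normalization (1.15, 0.0183) and with normexp (1.32, 0.00762). Over the 13 alternatives other than leaving out arrays, Fosb was called in 5 and Jun in 5. Leaving out each of the 12 arrays gave 0 calls for Fosb and 3 for Jun.

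Cell type markers also differed between the tissues in Matrigel. Of 10 fibroblast and pericyte markers 10 were lower in tumor organoids, as were 8 of 9 endothelial markers, against 25.9% of all genes. Of 10 basal markers 4 were lower and 2 higher. Of 11 luminal markers 7 were higher, against 25.7% of all genes, with a median of 0.93 over the list. The mean luminal level was 3.20 to 3.69 in normal Matrigel and 4.15 to 4.57 in tumor Matrigel, and the mean fibroblast level -0.14 to 1.96 and -2.94 to -2.60. Of 9 endothelial markers 5 to 7 were well above background on tumor Matrigel arrays. The part of this change of cell types in the rise of the 6 genes was not tested.

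In collagen I, the limma fit called 0 of the 9 genes between tumor and normal organoids. Of all genes 8.64% were called, 3.64% higher and 5% lower. An unadjusted p below 0.05 was found for 2 of the 9 (Fosl1 and Jun) and for 4240 of the 18274 genes. Without overlap, tumor arrays lay above normal ones in 1 of the 9 genes, Fosl2, and below in 0, against 18.1% and 15% of all genes. Fos differed by -0.20 ± 0.35 (95% interval -0.96 to 0.57), Junb by 0.16 ± 0.28 (-0.46 to 0.79), Egr1 by -0.11 ± 0.30 (-0.78 to 0.56), Nr4a1 by 0.12 ± 0.20 (-0.32 to 0.55) and Nr4a2 by -0.15 ± 0.23 (-0.66 to 0.36). For all 5 of these genes the interval leaves out a difference as large as that measured in Matrigel. These intervals are not adjusted for the number of genes, and the Matrigel value has an error of its own. The direct comparison of the tissue differences in both gels, given below, was called for Junb, Nr4a1 and Nr4a2. It was not called for Fos (limma adjusted p = 0.0707) or Egr1 (0.139), nor for any of the 5 in the authors' deposited values. Fosl1 differed by 1.19 ± 0.51 (adjusted p = 0.189) and Jun by 0.60 ± 0.24 (0.161). Without tumor collagen I mouse A, the array that lay lowest of its group in 8 of the 9 genes, Fosl1 (1.85, adjusted p = 0.0116) and Jun (0.89, 0.0154) were called. In tumor collagen I the fibroblast markers had a mean level of -2.32 to -1.24 and in normal collagen I of 0.17 to 1.55.

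Whether the gel acted differently in the 2 tissues was tested as the gel difference in tumor organoids minus that in normal organoids, which is the same contrast as the tissue difference in collagen I minus that in Matrigel. It was below 0 and called for Junb (-1.83 ± 0.40, adjusted p = 0.0443), Nr4a1 (-1.28 ± 0.28, 0.0443) and Nr4a2 (-1.46 ± 0.33, 0.047), where 2.63% of all genes were called, 1.34% higher and 1.29% lower. The 95% intervals were -2.71 to -0.94, -1.90 to -0.66 and -2.17 to -0.74. The gel difference of Junb was 1.18 in normal and -0.65 in tumor organoids, that of Nr4a1 0.99 and -0.30, and that of Nr4a2 1.84 and 0.38. Fosl1 (-2.45 ± 0.72, adjusted p = 0.079), Fos (-1.76 ± 0.49, 0.0707) and Egr1 (-1.11 ± 0.43, 0.139) were not called, and Fosb (-0.38), Jun (-0.01) and Fosl2 (0.18) lay near 0.

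These 3 calls sat close to the threshold. The Junb call ended without each of 9 arrays (normal Matrigel B and D, normal collagen I A, B and C, tumor Matrigel A, B and C, tumor collagen I A), at -1.87 to -1.56 and an adjusted p of 0.0503 to 0.124. Nr4a1 lost its call without 8 arrays (normal Matrigel B and D, normal collagen I A, B and C, tumor Matrigel B, tumor collagen I A and C), at -1.39 to -1.10 and 0.0576 to 0.127. Nr4a2 lost it without 9 (those 8 and tumor collagen I B), at -1.68 to -1.26 and 0.0544 to 0.126. With mouse as a fixed replicate block none was called (-1.66, -1.35 and -1.14, adjusted p = 0.15, 0.131 and 0.161), with mouse as a random replicate block 5 genes were, and in the authors' deposited values 0 were. Slide as a fixed block ended the calls of Nr4a1 (adjusted p = 0.0634) and Nr4a2 (0.0614) and added Fosl1 (0.0402), and averaging the probes of a gene ended that of Junb (0.0516).

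Fosl2 encodes FRA-2, and its 2 probes disagreed. The brighter one, A_52_P484903, which stands for the gene above, gave levels of -0.09, 0.21 and -0.29 in normal Matrigel (A, B, D), -0.10, -0.04 and -0.0015 in normal collagen I (A, B, C), 0.26, -0.11 and 0.76 in tumor Matrigel and 0.03, 0.49 and 0.95 in tumor collagen I. The other, A_51_P507242, gave -3.56, -3.70 and -4.09, then -3.50, -3.51 and -3.57, then -2.80, -1.94 and -1.66, and -2.93, -2.79 and -2.01 in the same order. By the first probe the groups overlap except that tumor lay above normal in collagen I; by the second every tumor array lay above every normal array. In a fit over the 26604 probes, the second was higher in tumor than in normal organoids in Matrigel by 1.65 ± 0.32 (3.14-fold, limma adjusted p = 0.0017), and in collagen I by 0.95 ± 0.32 (0.0977). The first differed by 0.36 ± 0.27 (0.289) and 0.54 ± 0.27 (0.271). With both probes averaged, Fosl2 was called in Matrigel at 1.01 (adjusted p = 0.01).
The second probe is printed because it gave the larger difference; it is taken from the array files, all in lower case as no part is singled out. Each of these 2 probes has 1 reading frame free of stop codons over its 60 bases, so that this does not set them apart.
A_51_P507242: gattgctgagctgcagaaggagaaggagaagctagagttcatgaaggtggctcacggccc
Which transcripts each probe reads was not tested.

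Junb's 2 probes share 22 bases and gave like values. The dimmer one, A_51_P159194, differed between tumor and normal organoids in Matrigel by 1.79 ± 0.34 (limma adjusted p = 0.00166), against 1.99 ± 0.28 for the brighter. For the gel the dimmer probe gave 1.03 ± 0.34 (0.361) in normal and -0.84 ± 0.34 (0.086) in tumor organoids, and for the difference of these -1.87 ± 0.48 (0.06).

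**Figure D3:**
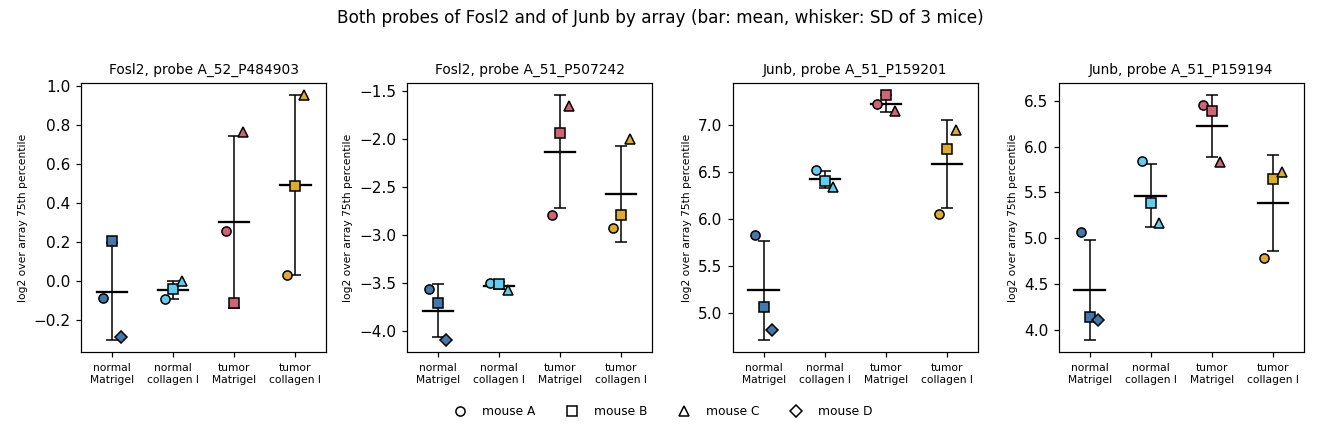
Level of both probes of Fosl2 (left pair of panels) and of Junb (right pair) on each array, as log2 over the array's 75th percentile, in the 4 groups; symbols are mice, bars means and whiskers the SD of 3 mice. The second Fosl2 panel separates the 6 tumor from the 6 normal arrays and the first does not, while both Junb panels have normal Matrigel lowest and tumor Matrigel highest by mean.

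Normal Matrigel mice A and B were also hybridised in an earlier batch of 2 arrays, which for mouse B used the same RNA. There Fos was at -0.57 and -0.54 (mice A and B), Nr4a2 at -1.78 and -1.22, Nr4a1 at 3.54 and 3.58, Egr1 at 2.33 and 2.56 and Junb at 5.38 and 5.46. Each of these lay below every normal collagen I and tumor array of the later batch. The largest gap between the batches was -1.20 in Fosb of mouse B, and Fos moved by 0.03 and 0.28. With the mean of both batches for these mice, Fos (-1.71, adjusted p = 0.0461) and Fosl1 (-2.44, 0.0476) joined the called differences of gel differences, for 5 in all, and Fosb (0.89, 0.0442) the called tissue differences in Matrigel. The calls over all genes rose as well, from 481 to 2227 for the difference of gel differences. For the tissue in Matrigel they rose from 9435 to 10176.

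Other genes of the pathway were taken from lists set with earlier results of these data known. Of 24 other immediate early genes, 17 rose and 1 fell in tumor against normal organoids in Matrigel, where 25.7% and 25.9% of all genes did, with a median of 1.47 against 0.08 over all genes. Those with the smallest adjusted p were Zfp36l2 (1.78 ± 0.19, limma adjusted p = 9.98e-05) and Zfp36 (1.63 ± 0.21, 0.000261), which speed the decay of AU-rich mRNAs, the matricellular gene Cyr61 (2.50 ± 0.35, 0.000378) and the repressor Nfil3 (2.62 ± 0.38, 0.000464). The gene that fell was Egr2 (-1.82), which was also the only one called in collagen I (-2.07 ± 0.39, adjusted p = 0.00803). Egr2 is 4.17% of the list, where 5% of all genes were lower in collagen I. In tumor organoids 8 of the 24 fell in collagen I against Matrigel and 0 rose (12.1% and 15.8% of all genes), led by Zfp36l2 (-1.01 ± 0.19, adjusted p = 0.00531) and the synaptic immediate early gene Arc (-2.19 ± 0.59, 0.0212). In normal organoids 20 of the 24 had a difference above 0 and 0 were called; the median was 0.49, against -0.01 over all genes. Zfp36l2 was the 1 gene of the list whose gel difference was called as different between the tissues (-1.60 ± 0.27, adjusted p = 0.0265). It is 4.17% of the list, where 1.29% of all genes were called lower.

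**Figure D4:**
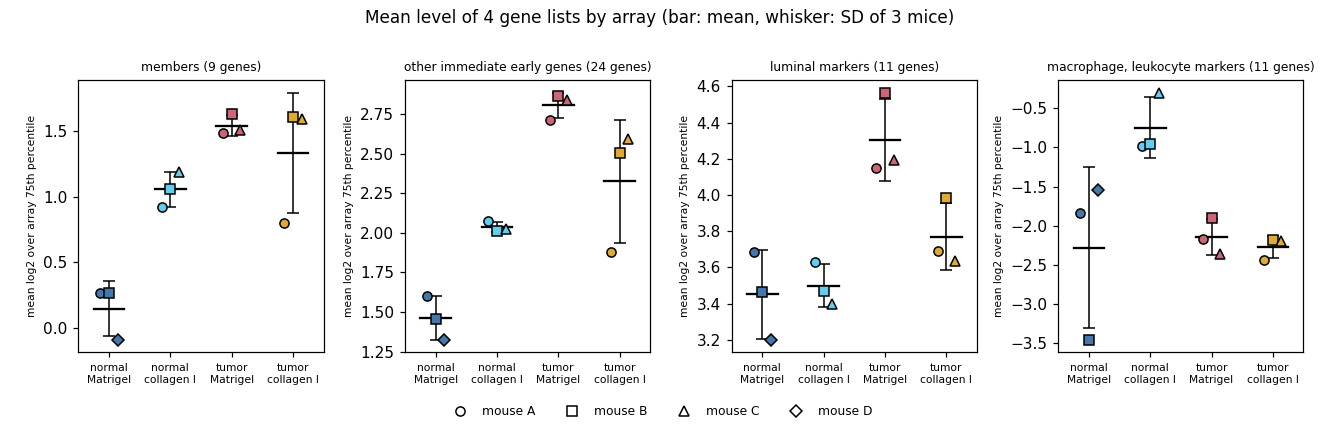
Mean level of 4 gene lists on each array, as log2 over the array's 75th percentile (vertical axis; each panel has its own range), in the 4 groups; symbols are mice, bars means and whiskers the SD of 3 mice. The 9 immediate early factors and the 24 other immediate early genes are lowest in normal Matrigel, luminal markers are highest in tumor Matrigel, and macrophage and leukocyte markers are highest in normal collagen I.

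Among 14 dimer partners and related bZIP factors, 7 rose and 1 fell in tumor organoids in Matrigel (25.7% and 25.9% of all genes; median 0.66). They were led by the stress factor Atf3 (2.15 ± 0.34, limma adjusted p = 0.000637), the small Maf proteins Maff (3.20 ± 0.50, 0.000637) and Mafg (1.03 ± 0.18, 0.00104), and Batf3 (1.89 ± 0.44, 0.00502). In tumor organoids 5 of the 14 fell in collagen I, against 12.1% of all genes, among them Atf7 (-0.70 ± 0.19, 0.0226), Maff (-1.75 ± 0.50, 0.0261), Batf3 (-1.32 ± 0.44, 0.0457) and Batf2 (-1.21 ± 0.40, 0.0453), and 0 rose. Of the 14, 0 were called for the gel in normal organoids, and 1, Batf, was lower in tumor organoids in collagen I (-1.82 ± 0.45, adjusted p = 0.0296). Batf is 7.14% of the list, where 5% of all genes were lower.

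Of 24 kinases and factors upstream of these genes, 9 were higher and 4 lower in tumor organoids in Matrigel (25.7% and 25.9% of all genes), a median of 0.29. Of the 24, 23 to 24 were well above background on tumor Matrigel arrays, so the size of a fall to near background is uncertain. Mapk7, the ERK5 kinase (1.09 ± 0.17, limma adjusted p = 0.000671), and Map2k2, the ERK kinase MEK2 (1.10 ± 0.21, 0.0017), were higher, and Mapk8, which encodes JNK1 (-3.01 ± 0.40, 0.000274), and the MADS-box factor Mef2a (-1.44 ± 0.26, 0.00126) were lower. In tumor organoids Mapk8 was higher in collagen I than in Matrigel (3.01 ± 0.40, adjusted p = 0.00153). In collagen I, Map2k1 (0.72 ± 0.16, 0.0213) and Mapk7 (0.65 ± 0.17, 0.0404) were the 2 called of 24, both higher in tumor organoids. They are 8.33% of the list, where 3.64% of all genes were higher and 5% lower.

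Among 16 inhibitors, 5 were higher and 4 lower in tumor organoids in Matrigel (31.2% and 25%, near the 25.7% and 25.9% of all genes; median 0.07). On each tumor Matrigel array 15 of the 16 were well above background, so the size of a fall to near background is uncertain. Dusp2, a nuclear phosphatase of ERK (-4.03 ± 0.30, limma adjusted p = 1.39e-05), the EGR1 corepressor Nab1 (-1.32 ± 0.16, 0.000179), Crem, which can repress CRE-driven genes (-1.22 ± 0.18, 0.000423), and Rfwd2, the ubiquitin ligase COP1 that targets JUN (-2.03 ± 0.32, 0.000661), were lower. Nab1 (1.37 ± 0.23, adjusted p = 0.0236) and Crem (1.29 ± 0.25, 0.0348) also had a gel difference that was larger in tumor than in normal organoids, opposite in sign to those of Junb, Nr4a1 and Nr4a2. Both together are 12.5% of the list, where 1.34% of all genes were called higher. In tumor organoids collagen I raised Crem (1.29 ± 0.18, 0.00172) and Nab1 (1.00 ± 0.16, 0.0028) and lowered the ERK phosphatase Dusp6 (-1.48 ± 0.30, 0.00658).

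Of 24 known AP-1 target genes 13 rose and 2 fell in tumor organoids in Matrigel, where 25.7% and 25.9% of all genes did, with a median of 1.22. On tumor Matrigel arrays 21 to 23 of the 24 were well above background. The size of a difference against a group near background is uncertain. The growth factor Hbegf (4.35 ± 0.41, limma adjusted p = 4.69e-05), the chromatin protein Hmga1 (3.27 ± 0.38, 0.000148) and the urokinase receptor Plaur (1.84 ± 0.33, 0.0012) were among those that rose. In collagen I 3 were higher and 3 lower, each 12.5% against 3.64% and 5% of all genes. Vegfa (2.38 ± 0.43, 0.00651) and Hbegf (1.79 ± 0.41, 0.0208) were higher, and Areg (-2.70 ± 0.58, 0.0157) and Timp1 (-1.94 ± 0.42, 0.0159) lower. In tumor organoids collagen I raised the collagenase Mmp13 (3.06 ± 0.70, adjusted p = 0.011) and lowered 4 genes, led by Hmga1 (-1.64 ± 0.38, 0.0116), Ccnd1 (-1.14 ± 0.31, 0.0219) and Hbegf (-1.46 ± 0.41, 0.0232). These are 4.17% raised and 16.7% lowered, against 15.8% and 12.1% of all genes. In normal organoids 0 of the 24 were called, 17 lay above 0, and the median was 0.68. Hbegf was the 1 target whose gel difference differed between the tissues (-2.56 ± 0.57, adjusted p = 0.047). It is 4.17% of the list, where 1.29% of all genes were called lower.

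Of 16 EGR1 and CREB target genes, 7 were higher and 5 lower in tumor organoids in Matrigel (25.7% and 25.9% of all genes). On tumor Matrigel arrays 14 to 15 of the 16 were well above background, so the size of a fall to near background is uncertain. Sik1, a kinase that CREB induces (2.86 ± 0.25, limma adjusted p = 3.66e-05), and the cyclic AMP phosphodiesterase Pde4b (2.00 ± 0.23, 0.000126) were higher, and the neurotrophin Bdnf (-3.23 ± 0.28, 3.48e-05) was lower. The gel difference was lower in tumor than in normal organoids for Pde4b (-1.72 ± 0.32, adjusted p = 0.0332), the stress gene Gadd45a (-2.10 ± 0.42, 0.0371) and Sik1 (-1.74 ± 0.36, 0.0382), 3 of the 16 against 1.29% of all genes. Of 14 NR4A partners and targets 9 were tested; 3 were higher and 2 lower in tumor organoids in Matrigel, near the 25.7% and 25.9% of all genes. Of the 9, 8 were well above background on each normal Matrigel array and 7 on each tumor Matrigel array. The size of a difference against a group near background is uncertain. Tnfrsf9 (6.45 ± 0.85, limma adjusted p = 0.000274), a costimulatory receptor, and the partner receptor Rxrb (1.61 ± 0.22, 0.00037) were higher, and the hormone precursor gene Pomc (-2.06 ± 0.49, 0.00529) was lower. In tumor organoids, Rxrb (-1.32 ± 0.22, adjusted p = 0.00339) and the matrix protein gene Spp1 (-0.56 ± 0.18, 0.0415) were lower and Pomc (1.53 ± 0.49, 0.039) was higher in collagen I than in Matrigel. For Rxrb the gel difference was called as different between the tissues (-1.48 ± 0.32, adjusted p = 0.0428). Rxrb is 11.1% of the 9, where 1.29% of all genes were called lower.

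For the 6 genes whose group means spanned at least 1 log2 unit, the nearest genes were sought among 15580 named genes, by the mean absolute difference of centred log2 levels over the 12 arrays. Nearest to Fos were Gm22 (0.273), Ccn2, the matricellular gene also called Ctgf (0.291), and Spsb1 (0.319). Ccn2 had group means of 3.68 in normal Matrigel, 5.34 in normal collagen I, 5.17 in tumor Matrigel and 5.73 in tumor collagen I. Fosl1 lay nearest to Tnfrsf1b (0.305), Micall2 (0.334) and Maff (0.334), and Junb to Prom1 (0.199), Pde4b (0.209) and Tnfrsf12a (0.21). For Egr1 these were Rnf122 (0.264), Car11 (0.265) and Fam107b (0.269), and for Nr4a1 Tmem160 (0.168), Pla2g15 (0.17) and Acbd4 (0.185). Nr4a2 lay nearest to A730009E18Rik (0.307), the membrane peptidase Mme (0.335) and 2210008N01Rik (0.335). Mme was also called in normal organoids, higher in collagen I by 1.90 ± 0.21 (limma adjusted p = 0.0105). It is also on the list of basal markers, and was the 1 of those 10 called there. Among the 9 genes themselves, Fos was nearest to Egr1 (0.324) and Nr4a2 (0.337), and Junb to Nr4a1 (0.333).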

How the data were processed

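RNA of 13 samples was amplified, labelled with Cy3 and measured on 14 Agilent arrays of 1 colour, per the labels' protocols. The deposited intensity is Agilent's processed signal, background-subtracted and detrended, with surrogates for low spots, per the file headers. These name Feature Extraction 9.5 and the submitters' processing notes 9.1. The authors' deposited log2 values, used as an alternative, have column medians of 5.919 to 5.984 and follow the scanner values at r of 0.995 to 1; their zero point and normalization are not given in the sources used here, and the column of normal Matrigel mouse B averages both batches.

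Here log2 signal minus each array's 75th percentile was taken, without control spots and spots flagged as outliers (52 to 139 an array of the 12), and spots of a probe were averaged. Probes entered the fit where all arrays of 1 group or more were well above background (26604 of 41174), and each gene took its probe with the highest mean. Fits used limma 3.58.1 in R 4.3.3 on the 12 batch 2 arrays with Benjamini-Hochberg adjustment at 0.05. The sample titles name batch 2 for normal Matrigel mouse A alone. The array of normal Matrigel mouse B in these fits was counted as batch 2, which its label does not state. It shares a slide with normal collagen I mouse C. The fit was tested on simulated data. Beside the scaling, probe choice and blocks tried as alternatives, the number of arrays limits the precision. Letters name mice per the labels, so that same-lettered arrays of a tissue are paired by animal; their deviations from group means correlated at 0.24 (A) and -0.243 (B) in normal and -0.0583 (A), 0.323 (B) and 0.419 (C) in tumor tissue. The genes and lists were chosen with earlier results of these data known. All 10 genes are named with every probe; of each other list, at most the 4 called genes with the smallest adjusted p per comparison, and 3 nearest genes for genes spanning 1 log2 unit; Egr2 and the singled-out marker values were named after their values were seen. Not every gene that this rule allows is named, and one is not reported here. Alternatives were scaling, filter, flagged spots, probe choice, blocks, weights, batch 1 and leaving out each array.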

Additional observations from a re-analysis of the deposited data

Results flagged for a closer look

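For 3 of the 9 genes the gel difference was tested as different between tumor and normal organoids (limma, adjusted p below 0.05), and the value is the gel difference in tumor minus that in normal organoids. It was -1.83 for Junb, which was higher in collagen I in normal organoids and lower in tumor organoids on all arrays without overlap. It was -1.28 for Nr4a1, whose normal collagen I arrays all exceeded the Matrigel arrays while the tumor groups overlapped. It was -1.46 for Nr4a2, whose collagen I arrays exceeded the Matrigel arrays in both tissues. In the authors' deposited values the gel difference in tumor organoids was 0.045 for Junb and 0.16 for Nr4a1. None of these 3 genes was called there for the difference of gel differences. With 3 mice in a group, no single array was tested as an outlier.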

How the results depend on the processing

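No called difference changed sign under any of the alternatives run; every reversal was in a difference that was not called, and for each the cause was not tested. In tumor against normal organoids in Matrigel, 5 to 8 of the 9 genes were called under all alternatives; in collagen I 0 were, except 2 without tumor collagen I mouse A, and leaving out each array gave 0 to 2. Leaving out each array gave 0 to 1 called genes for the gel in normal organoids, 0 to 1 in tumor organoids and 0 to 4 for the difference of gel differences. For the gel in normal organoids 1 gene was called; this became 0 with mouse as a fixed replicate block, 0 with slide as a fixed block and 0 with only the groups compared, 3 with mouse as a random replicate block and 5 with weights by array quality, whose estimate stopped before convergence. For the gel in tumor organoids 1 became 0 with no filter on dim probes, 0 with only the groups compared and 0 with weights. For the difference of gel differences 3 became 0 with the authors' deposited values, 0 with normexp background correction, 0 with no filter and 0 with mouse as a fixed replicate block, 1 with quantile normalization, and 5 each with both batches averaged, mouse as a random replicate block, slide as a random block and weights. The mouse blocks changed no other count. Where 5 genes were called for the difference of gel differences, the calls over all genes also rose from 481. They were 2227 with both batches averaged, 1726 with mouse and 1672 with slide as a random block, and 3146 with weights.

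Reversals among gel differences in tumor organoids were Junb 0.045, Nr4a1 0.16 and Fosb -0.12 in the authors' deposited values, Nr4a1 0.10 and Fosb -0.14 under quantile normalization, Fosb -0.62 under normexp, Fosl2 -0.13 with probes averaged, Fos -0.54, Egr1 -0.032 and Fosl2 -0.16 with slide as a fixed block, Fos -0.074 with slide as a random block and Fos -0.046 with weights. In normal organoids Fosl2 gave -0.13 with mouse as a fixed replicate block, -0.0102 with mouse as a random replicate block, -0.15 and -0.0217 with slide as a fixed and a random block and -0.0927 with weights. In collagen I the tissue difference of Junb was -0.33 and -0.29 and that of Nr4a1 -0.0644 and -0.0665 in the authors' deposited values and under quantile normalization, and Nr4a2 gave 0.13 with slide as a fixed block. The difference of gel differences of Jun was 0.13 in the authors' values, 0.0829 under quantile normalization, 0.14 under normexp, 0.0336 with both batches averaged and 0.0445 with mouse as a fixed replicate block, and that of Fosl2 -0.26 with probes averaged and -0.0097 with slide as a fixed block. Leaving out each array moved the gel difference in tumor organoids between -0.0031 and 0.38 for Egr1, -0.29 and 0.39 for Fos, -0.16 and 0.43 for Fosb, -0.0442 and 0.42 for Fosl2 and -0.40 and 0.0834 for Jun, and in normal organoids between -0.11 and 0.14 for Fosl2. It moved the tissue difference in collagen I between -0.25 and 0.13 for Egr1, -0.51 and 0.17 for Fos, -0.0213 and 0.43 for Junb, -0.0113 and 0.21 for Nr4a1 and -0.38 and 0.048 for Nr4a2, and the difference of gel differences between -0.0539 and 0.41 for Fosl2 and -0.20 and 0.28 for Jun.

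Normexp shifted the median of all genes to 0.45 for the tissue in Matrigel and to -0.32 for the gel in tumor organoids, from 0.08 and -0.04, and the share of calls that were higher to 77.1% and 39.2%, from 49.8% and 56.7%. It moved that share to 56.5% from 42.2% for the tissue in collagen I, to 10% from 50.9% for the difference of gel differences and to 100% from 87.5% for the gel in normal organoids, where quantile normalization gave 72.2% and the authors' values 66.7%. Under normexp the tissue differences in Matrigel of Fosl1 (2.85), Junb (1.68), Fos (1.37), Nr4a2 (1.17) and Nr4a1 (1.03) remained above that shifted median, and that of Egr1 (0.69, adjusted p = 0.139) was no longer called. Mouse as a fixed block could not be fitted for the tissue differences, since no mouse gave both tissues. Over all genes the number called was 8 for the gel in normal organoids (0 to 1186 over the alternatives, 71 with mouse as a random replicate block and 1186 with weights), 5089 for the gel in tumor organoids (1251 to 6377), 9435 for the tissue in Matrigel (7402 to 12777), 1579 in collagen I (192 to 2288) and 481 for the difference of gel differences (0 to 3146, 1726 with mouse as a random replicate block). With mouse as a fixed replicate block 0 of all genes were called for the gel in normal organoids and 0 for the difference of gel differences.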
